A study of Mus musculus with 8 samples.

Results

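Passenger-strand miRNA assays were examined in CD34+/CD105- cells of the mouse renal artery. They were taken as every miRNA assay whose name carries the sign #, whatever its species prefix. The sign, like the older star, marks the product of a miRNA hairpin that was catalogued as the less abundant of its pair. By this rule 115 of the 750 miRNA assays were passenger-strand assays, 64 with a mouse, 37 with a human and 14 with a rat prefix, and none was repeated. All 115 had catalogue numbers of the second of 2 series, taken here as the second of 2 PCR cards, which also held 260 other miRNA assays. The first card held 375 miRNA assays and no # assay.

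The cells were sorted by flow cytometry from collagenase-digested renal artery, from 4 mice after sham surgery and from 4 mice after renal ischemia/reperfusion, in which both renal arteries had been clamped. The study asks how the injury alters the miRNAs of these cells. The labels number the mice 1 to 4 within each group and state no pairing between the groups. The strain of the mice is not given in the sources used here, nor is their age, the length of clamping or the time of reperfusion. RNA was measured by real-time PCR, which gives the threshold cycle (Ct), the cycle at which the product is first seen. A Ct that is 1 lower means 2 times as much RNA if PCR is fully efficient. An assay was called detected below Ct 35.

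A miRNA hairpin is cut by Drosha and Dicer into a short duplex. One strand, the guide, is kept by Argonaute and pairs with target RNAs through its seed near the 5′ end, while the other, the passenger, is usually released and degraded. Which strand is kept depends on the stability of the duplex ends and on the 5′ base, and for some hairpins both strands are kept or the balance shifts between tissues. The names guide and passenger are therefore those of the catalogue, not a measurement in these cells.

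The mature sequences below belong to the hairpins on which the results turn: those of the 4 # assays detected in all 8 samples and of the assay with the largest split between the groups. They come from RefSeq on GRCm38.p6, run 5′ to 3′, and carry the seed (bases 2 to 8) in capitals. They were matched by name, since the deposited tables hold assay names only. The # assay of miR-29b was matched to the 5p arm, that of miR-34c to the 3p arm, that of miR-877 to the 3p arm and that of miR-376b to the 5p arm. Both arms of miR-463 are shown because the name does not settle which one its # assay reads. miR-34b-3p is shown because it shares its seed with miR-34c-3p.
miR-29b-1-5p: gCUGGUUUcauauggugguuua
miR-29b-3p: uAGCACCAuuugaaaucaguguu
miR-34c-3p: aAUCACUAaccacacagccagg
miR-34b-3p: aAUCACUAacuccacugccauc
miR-463-5p: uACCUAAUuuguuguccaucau
miR-463-3p: uGAUAGACaccauauaagguag
miR-877-5p: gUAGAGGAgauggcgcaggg
miR-877-3p: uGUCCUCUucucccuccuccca
miR-376b-5p: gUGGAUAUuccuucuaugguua
miR-376b-3p: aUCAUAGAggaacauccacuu

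The passenger arm of miR-29b lies at chr6:31063067-31063088 and its guide arm at chr6:31063025-31063047, both on the minus strand of GRCm38.p6, next to the gene of miR-29a. miR-34c-3p lies at chr9:51103044-51103065 on the minus strand, within the span of the gene Btg4, and miR-34b-3p at chr9:51103574-51103595. The miR-463 arms lie at chrX:66799273-66799294 (5p) and chrX:66799236-66799257 (3p), minus strand, in a dense miRNA cluster of the X chromosome. The miR-877 arms lie at chr17:35960795-35960814 (5p) and chr17:35960731-35960752 (3p), minus strand, within the gene Abcf1. miR-877 is known as a mirtron, a hairpin released by splicing of a short intron instead of by Drosha. The miR-376b arms lie at chr12:109723471-109723492 (5p) and chr12:109723508-109723528 (3p), plus strand, in the imprinted Dlk1-Dio3 region. Among the mouse miRNAs of that table, the seed of miR-29b-3p is shared with miR-29a-3p and miR-29c-3p, whereas that of miR-29b-1-5p is shared with none. The seeds of miR-877-3p and of both miR-463 arms are also shared with none, and that of miR-376b-5p is shared with miR-376c-5p.

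Few passenger strands were seen. Of the 115 # assays, 10 (8.70%) were detected in at least 1 sample, beside 43 of 260 (16.5%) of the other assays of the same card and 134 of 375 (35.7%) of those on the first card. The 37 human-prefixed and 14 rat-prefixed # assays were run on mouse RNA, and miR-93# was the only one of them detected. The other assays were not split by prefix, so the part of the prefix in the low share was not tested. Only 4 # assays (3.48%) were detected in all 8 samples, against 16 (6.15%) of the other assays on the second card. Of the 920 wells of # assays, 57 gave a Ct, and 44 of these were below 35. No Ct was recorded in any sample for 102 of the 115.

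In sham mice 1 to 4, the number of # assays detected was 5, 4, 7 and 8. In ischemia/reperfusion mice 1 to 4 it was 6, 4, 6 and 4. The groups overlapped, with means of 6 ± 1.83 (SD, n = 4) after sham surgery and 5 ± 1.15 (SD, n = 4) after ischemia/reperfusion, and the difference of -1 assay was smaller than the spread between sham mice. Leaving out each mouse in turn gave differences from -1.67 to -0.333 assays. Of the 10 detected # assays, 8 were seen in some sham mouse and 8 in some ischemia/reperfusion mouse, 2 in sham mice only and 2 in ischemia/reperfusion mice only. Of the 43 other assays detected on the second card, 8 were seen in sham mice only and 2 in ischemia/reperfusion mice only. For the 177 other assays detected on both cards these counts were 56 and 3. The other assays of the second card numbered 34, 25, 34 and 36 detected in sham mice and 28, 20, 25 and 28 in ischemia/reperfusion mice. The ischemia/reperfusion mean was 83.3% of the sham mean for # assays, 78.3% for the other assays of that card and 67.2% for those of the first card. These ratios were not tested against each other. In sorted cells, fewer cells of a type and less RNA per cell cannot be told apart.

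**Figure D1:**
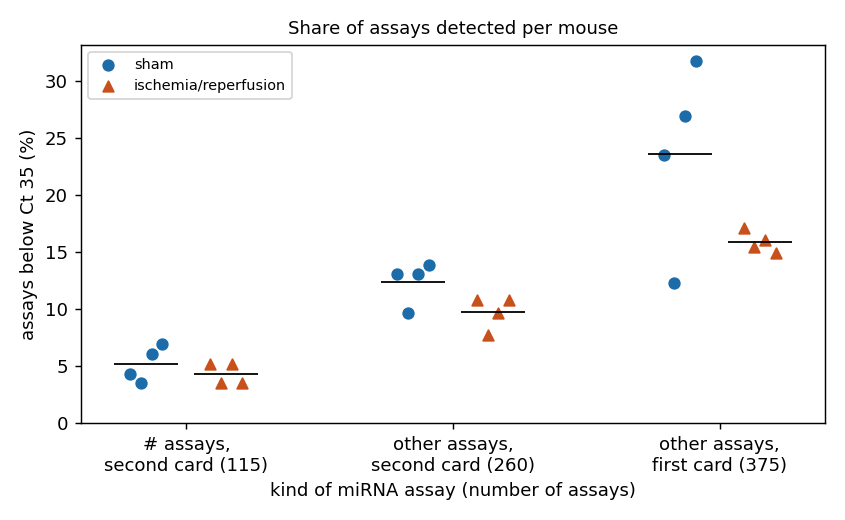
Share of miRNA assays below Ct 35 in each mouse (vertical axis, percent) for the 115 # assays, the 260 other assays of the second card and the 375 of the first. Points are mice and bars are group means of 4. The # assays lie between 3.48% and 6.96% in every mouse, and their groups overlap.

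The most readily detected passenger assays were miR-463#, miR-29b#, miR-877# and miR-34c#, each below Ct 35 in 8 of 8 samples. Ct values of different assays are not on one scale, because each assay has its own efficiency, so the order of these assays is an order of Ct and not of molecules. For miR-463#, from a hairpin of an X-chromosome cluster better known from testis, sham mice 1 to 4 had Ct 27.6, 28.0, 26.9 and 27.9. The ischemia/reperfusion mice, in the same order here and later, had Ct 28.3, 28.7, 28.0 and 27.5. The lowest Ct was in sham mouse 3 and the groups overlapped.

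miR-29b# is the partner of miR-29b, a miRNA best known for repressing collagens and other matrix genes. Its Ct was 29.3, 29.5, 29.1 and 29.6 in sham mice and 28.7, 29.9, 29.2 and 29.8 in ischemia/reperfusion mice. The lowest and the highest value were both in ischemia/reperfusion mice, so the sham values lay wholly within the range of the other group.

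miR-877# gave Ct values of 28.4, 31.8, 28.9 and 29.2 in sham mice and of 31.3, 30.1, 29.5 and 29.6 in ischemia/reperfusion mice. Sham mouse 2 stood apart from the other sham mice, at the highest Ct of all 8 samples, and the groups overlapped through it. The passenger of miR-34c, a miRNA induced by p53, was the latest of the 4. Its Ct was 33.2, 33.9, 31.9 and 31.9 in sham mice and 33.0, 33.3, 33.4 and 32.4 in ischemia/reperfusion mice. The highest and the lowest values were both in sham mice, and all values lay within a few cycles of the detection limit.

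**Figure D2:**
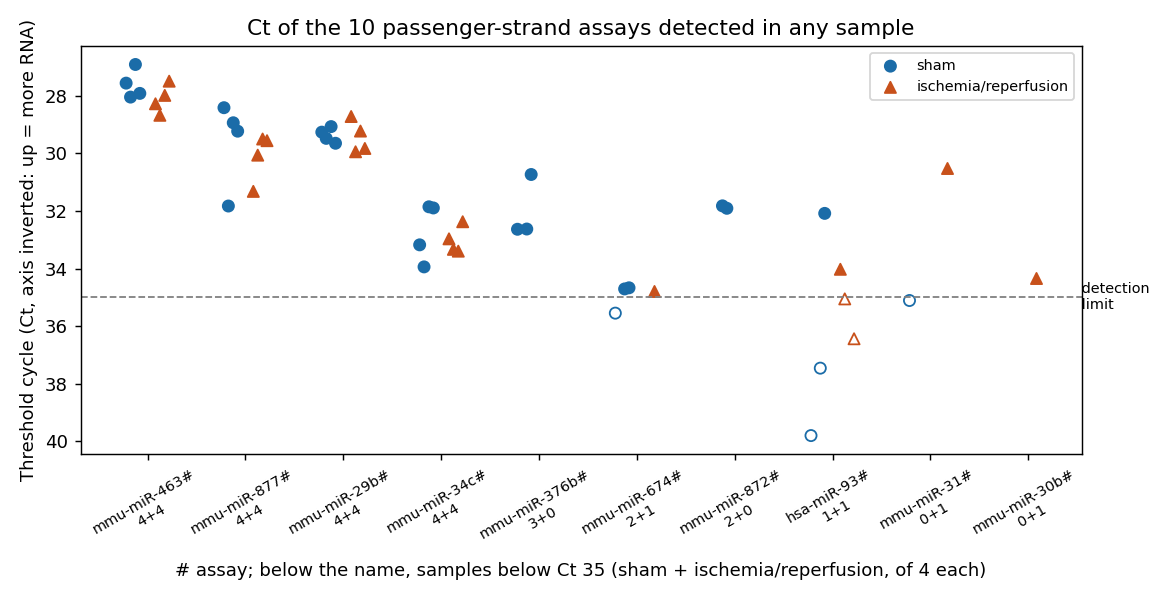
Ct of the 10 # assays detected in any sample (vertical axis, cycles, inverted so that up is more RNA). Each point is a mouse, filled below Ct 35 and open at or above it, and under each name stand the numbers of sham and ischemia/reperfusion mice detected. The 4 assays at the left are below 35 in all 8 mice with overlapping groups, and miR-376b# and miR-872# are seen in sham mice only.

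Across the 8 samples the raw Ct values of these assays varied little. miR-29b# had a Ct SD of 0.409, the smallest of the 54 miRNA assays detected in all 8 samples. The SD of miR-463# was 0.538 (rank 4 from the smallest), that of miR-34c# 0.754 (rank 7) and that of miR-877# 1.17 (rank 12). The median SD of the other 50 assays was 1.92, and that of the 16 others on the second card was 2.13. Between its lowest and highest sample, miR-29b# spanned 1.23 cycles, miR-463# 1.77, miR-34c# 2.09 and miR-877# 3.42, beside a median span of 5.43 among those 50. After subtraction of the reference all 4 ranked higher in spread. On minus delta Ct the SD was 1.33 for miR-29b# (rank 30 of 54), 1.21 for miR-463# (rank 25), 1.21 for miR-877# (rank 24) and 0.817 for miR-34c# (rank 11), beside a median of 1.29 among the other 50.

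Over all 8 samples the reference of the second card varied more, with a Ct SD of 1.34. Among ischemia/reperfusion mice alone its SD was 0.520. In that group the SD was 0.570 for miR-29b# (rank 11), 0.500 for miR-463# (rank 9), 0.469 for miR-34c# (rank 7) and 0.846 for miR-877# (rank 26). The authors' reference Ct on the second card was, for sham mice 1 to 4 in turn, 21.5, 23.03, 20.2 and 18.8. For the ischemia/reperfusion mice it was 21.5, 22.6, 21.6 and 21.9. It averaged 20.9 ± 1.79 (SD, n = 4) after sham surgery and 21.9 ± 0.520 (SD, n = 4) after ischemia/reperfusion. The median Ct of the 16 other assays of that card detected in all samples was 25.7, 28.7, 25.2 and 24.3 in sham mice and 28.3, 28.5, 26.95 and 27.5 in ischemia/reperfusion mice. Sham mouse 4 had the lowest reference and the lowest such median, at 18.8 and 24.3, yet its Ct for miR-29b# (29.6) and miR-463# (27.9) was close to that of the other sham mice. Its Ct for miR-34c# (31.9) was close to that of sham mouse 3 and lower than in sham mice 1 (33.2) and 2 (33.9), and its Ct for miR-877# (29.2) lay between those of sham mice 1 and 2. The part of the reference in any difference between the groups was not tested beyond the scalings given next.

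After subtraction of the reference, levels are given as minus delta Ct, a log2 scale on which higher means more RNA. The level of miR-29b# was -7.80, -6.44, -8.85 and -10.82 in the sham mice, numbered 1 to 4, and -7.24, -7.31, -7.61 and -7.92 in the ischemia/reperfusion mice. Sham mouse 2 was the highest and sham mouse 4 the lowest of all samples, so the groups overlapped. The level of miR-463# was -6.10, -5.01, -6.69 and -9.09 in sham mice and -6.80, -6.04, -6.37 and -5.58 in ischemia/reperfusion mice, again with sham mice 2 and 4 at the ends.

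For miR-34c# the level was -11.72, -10.92, -11.64 and -13.07 in sham mice and -11.50, -10.70, -11.79 and -10.47 in ischemia/reperfusion mice. For miR-877# it was -6.95, -8.80, -8.72 and -10.40 in sham mice and -9.85, -7.42, -7.89 and -7.65 in ischemia/reperfusion mice. Sham mouse 4 was the lowest sample for both, and both had overlapping groups.

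**Figure D3:**
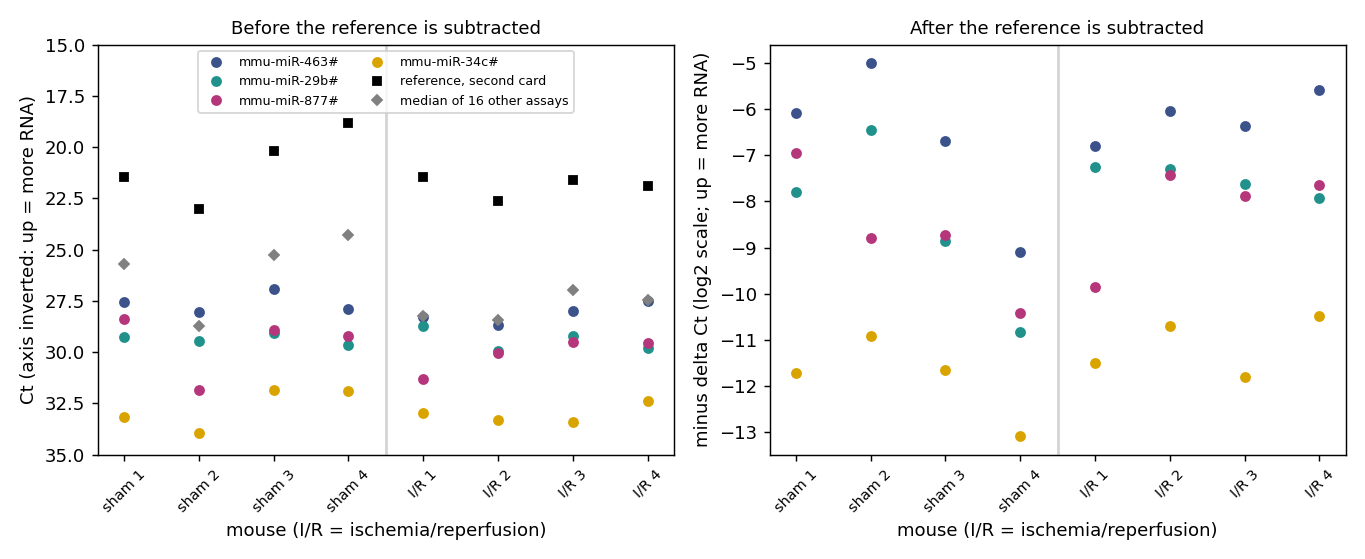
The left panel plots Ct (cycles, inverted so that up is more RNA) in each mouse for the 4 # assays detected in all samples, with the reference of the second card (black squares) and the median of the 16 other assays of that card detected in all samples (grey diamonds). The right panel plots the same # assays as minus delta Ct (log2 scale). The # assays spread less than the reference on the left, and sham mouse 4 is the lowest for all 4 on the right. The mean of ischemia/reperfusion mice is above that of sham mice on the right and below it on the left.

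No passenger assay passed the test between the groups. Of the 72 miRNAs tested with limma, 0 were called at an adjusted p under 0.05 (0%), and 0 of the 4 # assays. At an unadjusted limma p under 0.05 there were 10 of the 72 and 0 of the 4. The log2 difference, ischemia/reperfusion minus sham, was 0.96 ± 0.90 (SE, n = 4 per group) for miR-29b#, with an adjusted limma p of 0.587, and 0.72 ± 0.65 (SE) for miR-34c#, with an adjusted limma p of 0.587. It was 0.52 ± 0.88 (SE) for miR-463# and 0.51 ± 0.88 (SE) for miR-877#, both with an adjusted limma p of 0.722.

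The sign of these differences depended on whether a reference was subtracted. With no reference, on minus Ct, the log2 differences were -0.065 for miR-29b#, -0.30 for miR-34c#, -0.50 for miR-463# and -0.51 for miR-877#, and 0 of the 4 were called. With the mean of the 54 always-detected miRNAs as reference they were 1.63, 1.39, 1.19 and 1.18 in the same order. Without sham mouse 4 they were 0.18, 0.31, -0.27 and -0.048 in that order, with the deposited reference.

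A scaling moves all miRNAs of a sample together. The median log2 difference of all 72 was -0.80 with the deposited reference, -0.24 with the mean of the always-detected miRNAs, -0.80 with the control assays and -1.93 with none. The 4 # assays had a median of 0.62, 1.29, 0.74 and -0.40 under these scalings, in that order. Each of the 4 was above the median of all tested miRNAs, by 1.31 to 1.76 log2 units with the deposited reference, which is set per card. The other 3 scalings give the same distances, 1.42 to 1.87, by construction. This position is a description of 4 assays and was not tested.

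The other 6 detected # assays were seen in 1 to 3 samples. miR-376b#, from the imprinted Dlk1-Dio3 cluster, had Ct 32.6, 32.6 and 30.7 in sham mice 1, 3 and 4 and no Ct in sham mouse 2 or in any ischemia/reperfusion mouse. Detection in 3 against 0 of 4 mice had a two-sided Fisher exact p of 0.143 and an adjusted p of 1 over the 133 assays tested. Among all 750 miRNA assays, 25 (3.33%) were detected in at least 3 sham mice and at most 1 ischemia/reperfusion mouse. Of the 115 # assays 1 had this pattern, miR-376b#. The reverse pattern was shown by 2 of 750 (0.267%) and by 0 # assays. Sham mouse 2 was the only sham mouse without miR-376b#, so leaving it out fixes a split of 3 of 3 against 0 of 4 in advance. The unadjusted Fisher exact p was then 0.0286, the smallest possible, and the result lends no support to the split. In that setting 9 of the 128 assays tested had an unadjusted p under 0.05, and none passed after adjustment. Leaving out any other mouse gave no # assay a Fisher exact p below 0.143.

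miR-872# had Ct 31.8 and 31.9 in sham mice 3 and 4 and none elsewhere, with a Fisher exact p of 0.429. miR-674# sat at the detection limit, at Ct 34.7 in sham mice 3 and 4, 34.8 in ischemia/reperfusion mouse 3 and 35.6 in sham mouse 1. miR-93#, measured with a human-prefixed assay, was below 35 in sham mouse 4 (32.1) and in ischemia/reperfusion mouse 1 (34.03). It had a later Ct, from 35.1 to 39.8, in 4 further samples. miR-31# was detected in ischemia/reperfusion mouse 3 alone (30.5), with Ct 35.1 in sham mouse 1, and miR-30b# in ischemia/reperfusion mouse 1 alone (34.3). The 6 # assays seen in 1 to 7 samples were among the 133 tested for detection with Fisher's exact test, of which 0 (0%) were called after adjustment and 0 had an unadjusted p under 0.05. With 4 against 4 mice the smallest p possible is 0.0286, which only an assay seen in all of one group and none of the other can reach.

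miR-27a#, miR-138# and miR-676# gave a Ct in some sample but never below 35. Their Ct values ran from 36.5 to 39.6 and came from 2, 4 and 1 samples.

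Each # assay was then set beside the guide assay of the same full name, which the tables hold for 61 of the 115. Where several guide assays share that name, which was so for 2 of the 61, the one detected in more samples was taken. The guide was on the first card for 51 of these and on the second for 10. Where anything was detected in a pair, it was mostly the guide alone. The guide was detected in at least 1 sample in 32 pairs and the passenger in 8. In 26 pairs only the guide was detected, in 6 both, in 2 only the passenger (miR-376b and miR-674) and in 27 neither. Counted by well, 129 of 488 had the guide alone, 25 the passenger alone, 9 both and 325 neither.

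Over all 61 pairs the passenger was detected in 8, so an undetected passenger was not particular to widely detected guides. Guides of 8 pairs were detected in all 8 samples, and 6 of the 8 passengers were detected in none. These 6 guides were miR-92a (mean Ct 25.8), known from the miR-17-92 cluster, the human-prefixed miR-214 (27.3), abundant in mesenchymal cells, miR-191 (27.4), miR-150 (28.6), a lymphocyte miRNA, miR-16 (29.7), and miR-145 (31.4), a smooth muscle miRNA. Their median distance to the detection limit ran from 2.33 to 8.96 cycles, so a passenger that many cycles later would not have been seen at this limit. The remaining pairs of this kind were miR-30b and miR-31. The guide of miR-30b had Ct 21.6 to 26.5 with its passenger in 1 sample, and that of miR-31 had Ct 26.1 to 28.6 with its passenger in 1 sample.

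Allowing a guide assay with another species prefix, where the assay sequence may differ, gave a guide for 97 of the 115 # assays. Guides of 15 were detected in all 8 samples, of which 13 had no detected passenger, beside 105 of all 115 # assays detected in no sample. The mean Ct of those 13 guides ran from 25.3 (let-7b) to 32.2.

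**Figure D4:**
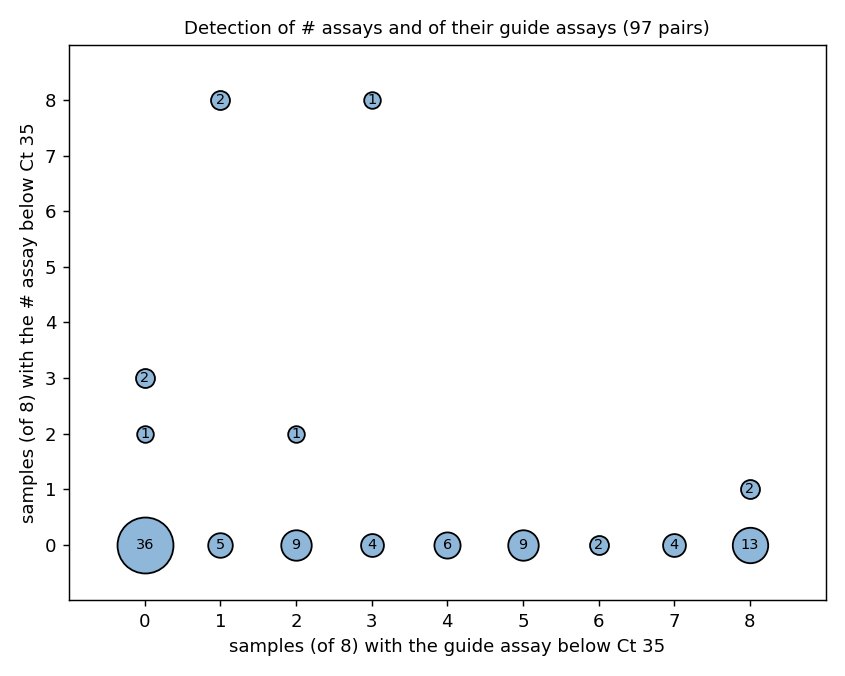
Number of samples (of 8) with the guide assay detected (horizontal axis) against the number with the # assay detected (vertical axis) for the 97 # assays with a guide assay of the same name under any prefix. Circle area and the number inside give the count of pairs. The 3 pairs at the top have a passenger in all 8 samples and a guide in 3 or fewer. The 13 at the lower right have a guide in all 8 and a passenger in none. Of the 97, 39 have no guide detected in any sample.

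Few pairs had a widely detected passenger. All 3 pairs with a passenger in all 8 samples had a guide in 3 samples or fewer. Guides were seldom widely detected in any case: of the 61 pairs, 32 had a guide in some sample and 8 in all 8. Whether the 3 pairs differ from the others in this was not tested. The miR-463 guide assay, on the same card as miR-463#, was below 35 only in ischemia/reperfusion mouse 3 (33.2). In the other samples with a Ct it ran from 35.1 to 37.4. Over all samples with a Ct for both, miR-463# was lower than its guide assay by 5.19 (ischemia/reperfusion mouse 3) to 9.36 cycles (sham mouse 3). The miR-29b guide assay was detected in sham mouse 2 (34.6) and in ischemia/reperfusion mice 3 (34.1) and 4 (29.2), while miR-29b# was below Ct 30 in every sample. In ischemia/reperfusion mouse 4 the miR-29b guide had the lower Ct (29.2 against 29.8 for miR-29b#). The miR-34c guide assay was detected only in sham mouse 4, where its Ct (30.9) was also lower than that of miR-34c# (31.9).

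In 6 pairs the # assay was above its guide assay in at least 1 sample, both on minus delta Ct and on raw Ct: miR-29b, miR-34c, miR-463, miR-674, miR-376b and miR-872. A sample with only the # assay detected was counted here as # above guide. The miR-674 guide had a single Ct, 36.9 in sham mouse 4, and the miR-376b guide had none. The miR-872 guide was detected in the same sham mice as its passenger, at 34.03 in sham mouse 3 and 32.6 in sham mouse 4, and elsewhere ran from 35.7 to 38.4. For miR-877#, no guide assay was used here, so its arm balance cannot be given. A lower Ct of one assay than of another can come from the assays as well as from the amounts of the strands, and which applies was not tested.

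Whether the balance of the arms differed between the groups could not be tested for any pair, since 0 pairs had both assays below Ct 35 in 3 or more mice per group. With the limit moved to Ct 38, 1 pair qualified. For miR-463 the passenger exceeded the guide by a mean of 8.26 log2 units in sham mice (n = 4) and 7.56 in ischemia/reperfusion mice (n = 3). The difference of -0.70 had an exact two-sided permutation p of 0.657.

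**Figure D5:**
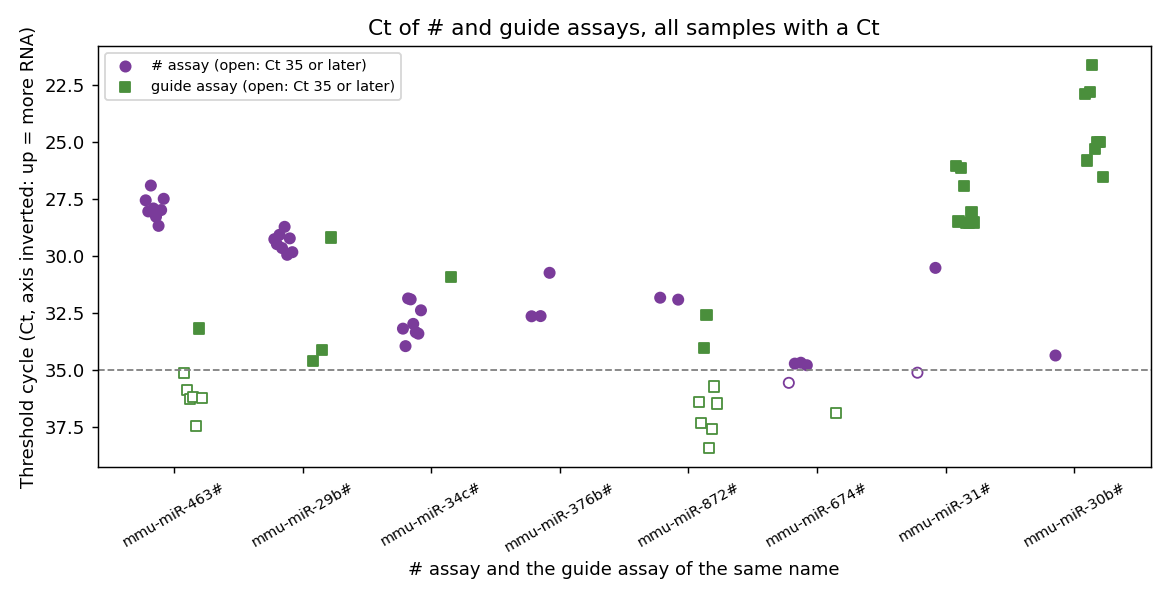
Ct (vertical axis, cycles, inverted) of the # assay (circles) and of the guide assay of the same name (squares) for the 8 pairs whose # assay was detected in any sample, with 1 point per sample that gave a Ct. Filled points are below Ct 35 and open points at or above it. The miR-463# circles lie above all squares of its guide, and the miR-30b and miR-31 guides lie above their # assays.

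Counts by hairpin family are small and are to be read beside the 8.70% detected among all # assays; they were not tested. The Dlk1-Dio3 cluster, a large imprinted miRNA cluster, had 1 of 12 # assays detected (miR-376b#), and the miR-17-92, miR-106a-363 and miR-106b-25 clusters 1 of 11 (miR-93#). The miR-29 family had 1 of 5, the miR-30 family 1 of 4 and miR-34 1 of 1. No # assay was detected among 8 of let-7, 5 of the miR-15/16 family, 5 of the miR-23/27/24 clusters, 6 of epithelial hairpins, 4 of mesenchymal and smooth muscle hairpins and 3 of leukocyte hairpins. None was detected either among 4 of miR-221, miR-222, miR-218 and miR-10, 4 of miR-99, miR-100 and miR-125, and 2 of miR-297, miR-466, miR-467 and miR-669. Of the 41 # assays outside these groups, 5 were detected. Within the miR-29 family, the assays named miR-29a#, miR-29b-1#, miR-29b-2# and miR-29c# with human or rat prefixes gave no Ct in any sample, whereas the mouse miR-29b# assay was detected in 8 of 8.

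Mir34c lies beside Mir34b, and the miR-34b-3p assay, whose mature strand shares its seed with miR-34c-3p, was detected in 4 sham and 1 ischemia/reperfusion mice at a mean Ct of 31.6. The miR-34b and miR-34b-5p assays were not detected in any sample. Within 50 kb of Mir376b, 13 of 60 matched assays, # assays among them, were detected in some sample. Over the whole series it was 177 of 635 assays without # (27.9%) and 10 of 115 # assays. Of the 13, miR-376c, miR-379 and miR-410 were seen in 3 sham mice and at most 1 ischemia/reperfusion mouse, and miR-411 in 8 of 8 samples. Among all 750 miRNA assays 25 (3.33%) were seen in at least 3 sham mice and at most 1 ischemia/reperfusion mouse, and the neighbours were not tested against this share. miR-463 lies among many miRNA genes of the X chromosome, and none of the 25 other assays matched to genes within 50 kb of it was detected in any sample. Beside Mir93, the miR-106b and miR-25 guides were detected in 8 of 8 samples and their # assays in none. miR-29a, encoded beside miR-29b, was detected in 8 of 8 samples at a mean Ct of 29.7.

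Fold changes in the authors' deposited table exist for 9 # assays, and all 9 are above 1, that is, higher after ischemia/reperfusion. The authors' deposited table gives 1.94 for miR-29b#, 1.65 for miR-34c#, 1.44 for miR-463# and 1.43 for miR-877#. For the same wells without the reference, the ratio was 0.956, 0.812, 0.707 and 0.702. It stayed above 1 for the other 5, at 24.2 for miR-31#, 3.80 for miR-27a#, 2.42 for miR-93#, 1.15 for miR-674# and 1.14 for miR-138#. The highest folds in the authors' deposited table were 26.8 for miR-31#, 23.8 for miR-27a# and 8.67 for miR-93#. Of the 9 in the authors' deposited table, 5 rest on at least 1 well at or above Ct 35, and 2 of these (miR-27a# and miR-138#) rest on no well below it. The folds for miR-31# and miR-27a# in the authors' deposited table each come from 1 well per group.

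The sorted cells carried the endothelial miRNA markers, with 2 of 2 miR-126 assays in all 8 samples. Mesenchymal markers were seen in part (2 of 3 in all 8, miR-199a-3p and miR-214), with miR-199a-5p not detected. For miR-214 this holds for the human-prefixed assay, while the mouse assay was detected in 7 samples. Leukocyte markers were also seen in part (2 of 4 in all 8, miR-223 and miR-150), with miR-142-3p in 3 samples and miR-142-5p not detected. Smooth muscle markers were seen at 2 of 2 in some sample, with miR-145 in all 8. miR-143 was detected in 3 samples with the human-prefixed assay and in 2 with the mouse assay. Striated muscle markers were seen at 2 of 3 in some sample (miR-206 in 6 samples), and neural markers at 0 of 2. Erythroid markers were at 0 of 3, and of the tubule and epithelial markers 4 of 9 were seen in some sample and none in all 8. These were miR-203 and miR-204 in 5 samples each, miR-194 in 2 sham mice (mean Ct 22.1) and miR-192 in 1 sham mouse, with miR-200a, miR-200b, miR-200c, miR-141 and miR-429 not detected in any sample. CD34 and CD105 themselves were not measured by these assays. The part of other cell types in the passenger values was not tested.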

How the data were processed

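Cells of 4 sham and 4 ischemia/reperfusion mice, numbered 1 to 4 within each group, were measured once each. Extraction used a mirVana kit and PCR a 7900HT instrument, per the labels' protocols. What the reference is made of is not given in the sources used here, and neither is the kind of card. Ct was deposited by the authors, as were delta Ct values on a log2 scale, which equal Ct minus 1 reference value per sample and card (largest deviation 7.11e-15 cycles), and the authors' fold change, a ratio computed from mean delta Ct. In 13 wells the authors' deposited delta Ct stands without a Ct, and these were treated as missing. PCR gives no counts, so the depth behind a value is unknown and precision rests on the spread between mice.

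From these, minus delta Ct was tested with limma 3.58.1 (R 4.3.3, two-sided) over the 72 miRNAs detected below Ct 35 in at least 3 samples of each group, with Benjamini-Hochberg adjustment at 0.05. Detection was tested per assay with Fisher's exact test in scipy 1.17.1 over the 133 assays seen in 1 to 7 samples, and arm balance with an exact permutation test. The scripts were tested on simulated data. Of 21 mature arms looked up by name, 18 were found in RefSeq (GRCm38.p6).

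Every # assay detected in at least 3 samples is given with its values, as is each above its guide in some sample, and those in 1 or 2 samples are named without a claim. Assays named for other reasons were chosen after their values were seen. The members and lists were chosen with earlier results of these data known. Alternatives were another reference or none, other detection limits, imputed wells, a looser filter, an unmoderated fit, an exact test, a replicate block and leaving out each mouse.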

Additional observations from a re-analysis of the deposited data

How the results depend on the processing

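The count of # assays called by limma was 0 under every alternative run. It was 0 for Fisher's exact test too, where the smallest p possible (0.0286) lets no single assay pass after adjustment, so this says nothing about stability. The log2 differences changed sign with no reference, to -0.065 for miR-29b#, -0.30 for miR-34c#, -0.50 for miR-463# and -0.51 for miR-877#. Leaving out each mouse gave 0.18 to 1.64 for miR-29b#, 0.31 to 1.03 for miR-34c#, -0.27 to 1.09 for miR-463# and -0.048 to 1.10 for miR-877#, the last 2 being negative without sham mouse 4. Adjusted limma p ran from 0.267 to 0.966 over these assays and settings. The difference in detected # assays was -1 with Ct 32, -1.5 with Ct 38 and -1.75 with any Ct. miR-376b# entered the fit, through the sham mice alone, only with imputed values, which then set every ischemia/reperfusion value, so no difference is given for it.

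Same-numbered mice of the groups had correlations of -0.384, -0.151, 0.020 and -0.250 over 54 assays. The labels state no pairing by number, and these values cannot settle whether there was one. With the number as a replicate block 0 # assays were called. For miR-463 at Ct 38, the block, chosen after seeing the data, gave -0.93 (exact permutation p = 1, with 8 sign assignments that allow no p below 0.25). Raw Ct, Ct 35 in missing wells, guides of any prefix, the block at Ct 35 and leaving out a mouse left no pair to test. No # assay has repeated rows, so taking the first row changes nothing. With 102 of 115 # assays giving no Ct, differences among these were not detectable.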
